A study of Mus musculus with 20 samples.

Results

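Genes of xenobiotic metabolism and of the aryl hydrocarbon receptor (AHR) pathway were followed in endothelial cells sorted as CD31+CD45-Ter119- from mouse ears. They were Fmo1, Fmo2, Cyp1a1, Cyp1b1, Sult1a1, Gstt1, Gstm1, Ahr, Ahrr and Tiparp, 10 of the 22180 genes that the array's annotation names alone on a probe set. A gene was read from the probe set that carries only its symbol, and where there were several (Tiparp, 2) from that with the highest mean over the 20 arrays. The genes were chosen by earlier results of these data, in which the DNFB differences of Sult1a1 and Fmo2 stood out, and their probe sets were selected on the mean RMA value. The DNFB differences of those 2 genes are therefore given as description without a test, as are their genotype differences, which use the same arrays. The adjusted p-values of the other genes describe the fit and are no independent support.

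The arrays came from 4 groups: control mice with a vehicle-treated ear (6 arrays), control mice with a DNFB-treated ear (6), NICD1-EC-OE mice with a vehicle-treated ear (4) and NICD1-EC-OE mice with a DNFB-treated ear (4). DNFB (dinitrofluorobenzene) is an electrophilic hapten that provokes contact hypersensitivity. Per the labels' protocols, all mice had 5 daily tamoxifen injections, sensitisation with DNFB on days 0 and 1 was followed by the ear challenge on day 5, with ears collected 24 hours later. In NICD1-EC-OE mice (NICD mice below) tamoxifen switches on a constitutively active Notch1 intracellular domain from the Rosa26 locus. Their genotype label is Pdgfb-CreERT2; R26-NICD, whereas the growth protocol names a CDH5-iCre transgene, so the promoter that drives the Cre is not settled. Control mice are labelled control without an allele, and age, sex and strain are not given. Nothing says whether each array is a separate mouse, so p-values measure only the spread between these samples.

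Drug- and toxin-handling enzymes work in steps. Oxidases such as the flavin-containing monooxygenases and cytochromes P450 add or expose a reactive group, and transferases then attach sulfate or glutathione, which makes the compound soluble. AHR is a ligand-activated transcription factor that leaves its cytosolic chaperones when it binds aromatic compounds, pairs with ARNT and binds DNA at a GCGTG core. Its classical target genes include Cyp1a1, Cyp1b1, Ahrr and Tiparp, and the last pair encode proteins that restrain AHR in turn. Blood vessel endothelium is a known site of AHR-induced CYP1 expression.

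Stretches upstream of the start site are shown for the 4 AHR target genes, which carry the core, and for Sult1a1 and Fmo2, the genes named earlier for their DNFB differences. Each line is the 250 bases before the RefSeq start site on the gene's strand, 5′ to 3′, build GRCm38.p6. Capitals mark GCGTG, or its complement CACGC.
Ahrr, chr13:74292332-74292581, minus strand: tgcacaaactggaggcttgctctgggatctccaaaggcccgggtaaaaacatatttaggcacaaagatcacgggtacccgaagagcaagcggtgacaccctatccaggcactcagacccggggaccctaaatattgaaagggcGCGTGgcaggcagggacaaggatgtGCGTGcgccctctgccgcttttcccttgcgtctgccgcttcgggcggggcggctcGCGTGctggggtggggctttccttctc
Cyp1a1, chr9:57697363-57697612, plus strand: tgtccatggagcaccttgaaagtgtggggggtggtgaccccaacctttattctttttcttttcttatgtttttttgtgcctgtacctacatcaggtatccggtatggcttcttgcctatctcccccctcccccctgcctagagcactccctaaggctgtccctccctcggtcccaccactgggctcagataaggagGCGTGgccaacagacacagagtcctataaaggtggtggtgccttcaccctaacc
Cyp1b1, chr17:79715062-79715311, minus strand: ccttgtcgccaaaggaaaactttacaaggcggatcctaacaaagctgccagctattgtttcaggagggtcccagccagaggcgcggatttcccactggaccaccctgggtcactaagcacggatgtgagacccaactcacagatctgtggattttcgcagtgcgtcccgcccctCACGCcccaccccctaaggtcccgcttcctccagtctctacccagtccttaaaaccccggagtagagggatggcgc
Tiparp, chr3:65528197-65528446, plus strand: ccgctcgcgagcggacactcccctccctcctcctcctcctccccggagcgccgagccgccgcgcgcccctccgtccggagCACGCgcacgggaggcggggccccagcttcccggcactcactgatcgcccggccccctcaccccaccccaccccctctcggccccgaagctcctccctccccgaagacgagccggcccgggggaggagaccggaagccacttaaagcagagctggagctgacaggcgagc
Sult1a1, chr7:126676419-126676668, minus strand: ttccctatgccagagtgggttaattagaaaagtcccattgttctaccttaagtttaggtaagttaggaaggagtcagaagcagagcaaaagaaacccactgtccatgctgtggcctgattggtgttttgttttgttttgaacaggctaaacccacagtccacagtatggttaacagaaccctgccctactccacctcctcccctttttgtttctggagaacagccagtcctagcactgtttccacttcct
Fmo2, chr1:162898759-162899008, minus strand: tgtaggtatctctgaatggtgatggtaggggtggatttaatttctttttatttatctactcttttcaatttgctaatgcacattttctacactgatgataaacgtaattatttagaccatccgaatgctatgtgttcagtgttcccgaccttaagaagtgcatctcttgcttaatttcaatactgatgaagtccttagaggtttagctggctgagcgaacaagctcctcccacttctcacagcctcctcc
The promoter table held 8 of the 10 genes, all but Fmo1 and Ahr. The core, searched on both strands, was in 5 of the 8 windows: 3 times in Ahrr (first bases 107, 82 and 27 before the start site) and once in Cyp1a1 (54 before), Cyp1b1 (76), Tiparp (170) and Gstm1 (76). It was in 28.2% of all 32851 windows of this length, and at least 3 times in 2.77%. The longer form TNGCGTG was found only in the Ahrr window among the 8, against 4.1% of all windows. These are matches of letters and not sites of binding. No match was found in the windows of Sult1a1, Fmo2 (first of its 2 start sites, and also the second) and Gstt1.

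Each probe set has a log2 value from robust multi-array averaging (RMA), and every level and difference below is on that log2 scale, with ± 1 SE for differences. Tests are limma's moderated tests over 14886 probe sets of 14178 genes, with p-values adjusted by Benjamini-Hochberg and a threshold of 0.05. In each group 11 of 11 endothelial markers (Pecam1 and Cdh5 among them) were above the array's median on every array. That alone does not show identity. Of 5 hepatocyte markers, which should be absent, 2 also lay above it on every NICD vehicle array. Over the 4 groups the mean level of the list ran from 9.36 to 10.51 for endothelial and from 3.21 to 3.96 for hepatocyte markers. Other cells' RNA was present too. In control vehicle arrays the list mean ran from 6.20 to 6.86 for fibroblast and from 6.91 to 8.07 for keratinocyte markers. For pericyte and smooth muscle markers it ran higher, from 8.87 to 9.29, with all 9 above the array median on each of these arrays. Of 9 fibroblast markers at least 7, and of 8 measured keratinocyte markers all 8, lay above the array median on every array of each group, whereas Ptprc, which encodes CD45, averaged 3.79 in control vehicle and 3.30 in NICD vehicle arrays, under the array medians, and 5.00 in control DNFB and 4.86 in NICD DNFB arrays. The array medians were 3.87 to 3.98 in the control set and 3.52 to 3.62 in the NICD set. Xist, the transcript of the inactive X, was at 2.27 to 3.16 in control and 8.47 to 9.07 in NICD arrays, so sex and array set cannot be told apart from genotype. The title of NICD vehicle replicate 4 says vehicle while its description says DNFB, and it was kept as vehicle. The mean level of the neutrophil markers ran from 3.14 to 3.46 in the NICD vehicle arrays, this one included. In the NICD DNFB arrays that mean ran from 5.19 to 5.52, so on these markers the array read as vehicle. Notch1 differed by -0.10 ± 0.10 between NICD and control vehicle ears (limma adjusted p = 0.445). With arrays centred on their medians it differed by 0.20 in vehicle ears (limma adjusted p = 0.22) and by 0.30 in DNFB ears (limma adjusted p = 0.0543). Whether its probe set reads the transgene was not tested.

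Fmo1, Fmo2 and Sult1a1 were far lower 24 hours after DNFB in both genotypes, Gstt1 fell in both, and Ahr itself fell by a smaller amount. Of the AHR target genes, Cyp1a1 fell and Cyp1b1 rose in control mice, while Tiparp did not pass in either genotype. In all, 7 of the 10 genes passed lower and 1 higher in control mice, beside 23.6% and 23.7% of all probe sets. In NICD mice 6 passed lower and 0 higher, beside 18.1% and 20%. Sult1a1 and Fmo2 are among the lower ones in both genotypes, and in control mice so is Ahrr, which entered the fit only through its high control arrays, so these counts are a description. Fewer cells of a type and less RNA per cell cannot be told apart in bulk samples.

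**Figure D1:**
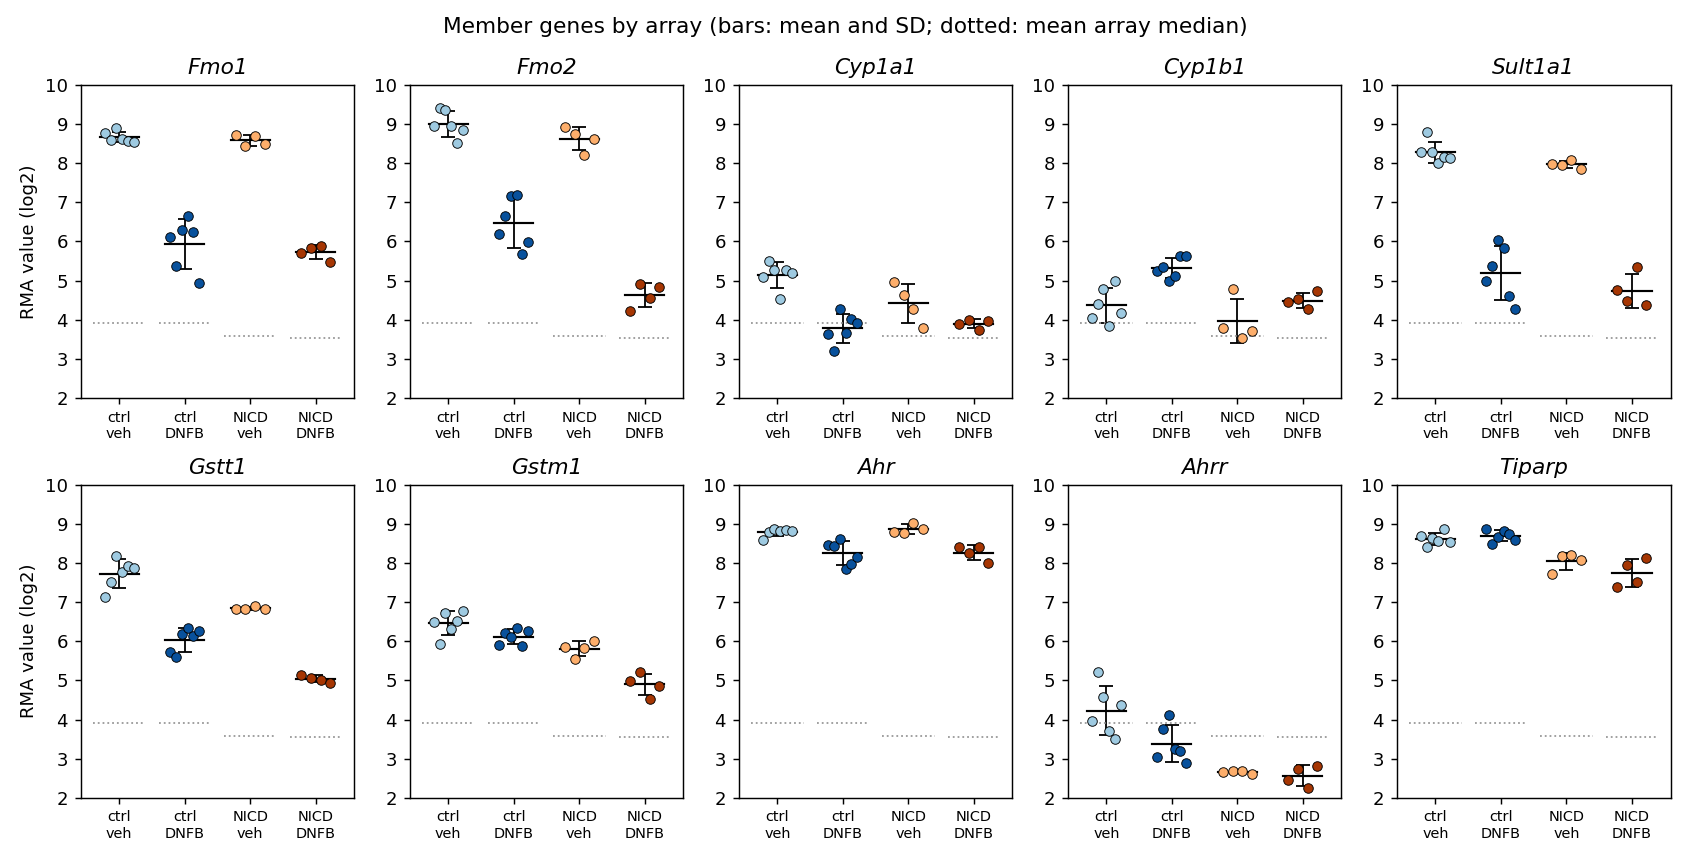
RMA values (log2, vertical axis) of the 10 genes by array in the 4 groups (ctrl, control; veh, vehicle), with the group mean and SD as bars and the mean array median as a dotted line. Fmo1, Fmo2, Sult1a1 and Gstt1 sit lower in every DNFB array than in any vehicle array of the same genotype, and Ahrr lies under the array median in all 8 NICD arrays.

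Fmo1 encodes a flavin-containing monooxygenase that oxidises nitrogen and sulfur in drugs and in natural amines. In control vehicle arrays it ran from 8.55 to 8.89 (median 8.61, n = 6), and in control DNFB arrays from 4.93 to 6.64 (median 6.18, n = 6). The NICD vehicle arrays read 8.72, 8.43, 8.69 and 8.50, and the NICD DNFB arrays 5.70, 5.84, 5.88 and 5.48. No DNFB array reached the lowest vehicle array of either genotype, and the control DNFB arrays were the most spread out. Fmo1 fell by 2.73 ± 0.21 in control mice (6.66-fold lower, limma adjusted p = 1.55e-09) and fell by 2.86 ± 0.25 in NICD mice (7.25-fold lower, limma adjusted p = 3.33e-08).

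Fmo2, a monooxygenase that is best known from lung, lies next to Fmo1 in the gene order of chromosome 1. It ran from 8.51 to 9.42 (median 8.95) in control vehicle and from 5.67 to 7.20 (median 6.42) in control DNFB arrays. Vehicle arrays of NICD mice read 8.93, 8.74, 8.22 and 8.63, and the NICD DNFB arrays 4.23, 4.92, 4.55 and 4.84. Vehicle arrays of the genotypes overlapped, whereas every NICD DNFB array lay under every control DNFB array. The DNFB difference was -2.53 ± 0.24 in control mice, 5.79-fold lower, and -3.99 ± 0.29 in NICD mice, 15.9-fold lower. Another family member, Fmo5, fell by 1.59 ± 0.17 in control mice (limma adjusted p = 2.66e-07) and fell by 1.55 ± 0.21 in NICD mice (limma adjusted p = 8.13e-06).

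Sult1a1 encodes a sulfotransferase that adds sulfate to small phenols, such as paracetamol, and its window above holds no AHR core. It ran from 8.01 to 8.80 (median 8.21) in control vehicle and from 4.28 to 6.04 (median 5.19) in control DNFB arrays. The NICD vehicle arrays read 7.98, 7.96, 8.09 and 7.86, and the NICD DNFB arrays 4.77, 4.47, 5.34 and 4.38. The vehicle and DNFB arrays did not overlap in either genotype, and the genotypes overlapped in DNFB ears. Its DNFB difference was -3.09 ± 0.24 in control mice, 8.51-fold lower, and -3.23 ± 0.30 in NICD mice, 9.38-fold lower. Control DNFB replicates 5 and 6 were the lowest of their group for Sult1a1 (4.60 and 4.28), and replicate 6 was also the lowest for Fmo1 (4.93).

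Gstt1 encodes a theta-class glutathione transferase. It ran from 7.12 to 8.18 (median 7.82) in control vehicle and from 5.59 to 6.34 (median 6.16) in control DNFB arrays. Vehicle arrays of NICD mice read 6.83, 6.83, 6.89 and 6.81, and the NICD DNFB arrays 5.15, 5.07, 5.02 and 4.94. In the deposited values all 4 groups stood apart from each other, though the lowest control vehicle array (7.12) and the highest NICD vehicle array (6.89) came close. Measured from each array's own median, the vehicle arrays of the genotypes overlapped. Gstt1 fell by 1.69 ± 0.15 in control mice (limma adjusted p = 1.84e-08) and fell by 1.80 ± 0.19 in NICD mice (limma adjusted p = 2.58e-07). Its neighbours of the same family moved in the same direction: in control mice Gstt2 fell by 2.34 ± 0.25 and Gstt3 fell by 1.23 ± 0.15, and in NICD mice they fell by 1.37 ± 0.31 and fell by 0.67 ± 0.18, each past the threshold.

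Gstm1 is a mu-class glutathione transferase with close paralogs beside it on chromosome 3, and how far its probe set also reads them was not tested. It ran from 5.94 to 6.77 (median 6.50) in control vehicle and from 5.88 to 6.34 (median 6.15) in control DNFB arrays, which overlapped. The NICD vehicle arrays read 5.86, 5.55, 5.83 and 6.01, and the NICD DNFB arrays 4.98, 5.20, 4.53 and 4.86, without overlap. Gstm1 fell by 0.92 ± 0.17 in NICD mice (limma adjusted p = 0.00026). In control mice the difference of -0.34 ± 0.14 lay just outside the threshold (limma adjusted p = 0.0513), and it passed without any one of control vehicle replicate 2 (-0.45, adjusted p = 0.00767), control DNFB replicate 4 or 6, NICD vehicle replicate 2, or NICD DNFB replicate 2 or 3. Among the paralogs, Gstm2 fell by 0.53 ± 0.19 in control (adjusted p = 0.0261) and fell by 0.94 ± 0.23 in NICD mice (adjusted p = 0.00274), and Gstm4 did not pass (-0.01 ± 0.20 and 0.34 ± 0.25).

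Ahr, the receptor, was lower in both genotypes after DNFB, by less than Fmo1 or Gstt1. It ran from 8.58 to 8.88 (median 8.81) in control vehicle and from 7.84 to 8.62 (median 8.29) in control DNFB arrays, which overlapped by a narrow margin. Vehicle arrays of NICD mice read 8.80, 8.77, 9.03 and 8.87, and the NICD DNFB arrays 8.40, 8.26, 8.40 and 7.99, without overlap. Ahr fell by 0.54 ± 0.12 in control mice (limma adjusted p = 0.00106) and fell by 0.60 ± 0.15 in NICD mice (limma adjusted p = 0.00304). Its partner Arnt did not pass in either genotype (0.01 and -0.11).

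Cyp1a1, the monooxygenase most often used as a read-out of AHR activity, lay close to the array median. It ran from 4.53 to 5.49 (median 5.23) in control vehicle and from 3.20 to 4.28 (median 3.80) in control DNFB arrays, 3 of which were under the array median. The NICD vehicle arrays read 4.97, 4.62, 4.29 and 3.80, and the NICD DNFB arrays 3.90, 4.00, 3.74 and 3.96. The control groups did not overlap, and in NICD mice only vehicle replicate 4, at 3.80, lay among the DNFB arrays. That array, whose title and description disagree, read as a vehicle array for Fmo1 (8.50, against 5.48 to 5.88 in NICD DNFB arrays). Cyp1a1 fell by 1.35 ± 0.19 in control mice (limma adjusted p = 7.57e-06). In NICD mice the difference was -0.52 ± 0.24 (limma adjusted p = 0.0928), and without NICD vehicle replicate 4 it was -0.72 and passed (limma adjusted p = 0.0194).

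Cyp1b1, a related P450 that also metabolises steroids and fatty acids, was the only one of the 10 genes to rise. It ran from 3.84 to 4.99 (median 4.29) in control vehicle and from 4.99 to 5.63 (median 5.30) in control DNFB arrays, which met at 4.99. Vehicle arrays of NICD mice read 3.80, 4.80, 3.53 and 3.72, and the NICD DNFB arrays 4.45, 4.52, 4.26 and 4.73. NICD vehicle replicate 2 stood above the DNFB arrays of its genotype, and the other vehicle arrays stood below them. Cyp1b1 rose by 0.95 ± 0.21 in control mice (limma adjusted p = 0.000809). In NICD mice the difference was 0.53 ± 0.26 (limma adjusted p = 0.116), and without NICD vehicle replicate 2 it was 0.81 and passed (limma adjusted p = 0.00937).

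Of 9 fibroblast markers 4 rose, none fell and 5 did not pass in control mice, beside 23.7% higher and 23.6% lower of all probe sets. Lum rose by 2.09 ± 0.26 and Pdgfra by 1.53 ± 0.24. The mean level over the list ran from 6.20 to 6.86 in control vehicle and from 6.96 to 7.84 in control DNFB arrays. In NICD mice 3 of the 9 rose and 2 fell, beside 20% and 18.1% of all probe sets. Other cells' markers rose too in control mice: 6 of 6 measured neutrophil markers, and 4 of 7 measured macrophage and dendritic markers with 0 lower. The part of these cells in the Cyp1b1 difference was not tested.

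Ahrr encodes the AHR repressor and its window holds the core 3 times. It ran from 3.50 to 5.20 (median 4.18) in control vehicle and from 2.90 to 4.12 (median 3.22) in control DNFB arrays. The NICD vehicle arrays read 2.67, 2.67, 2.70 and 2.61, and the NICD DNFB arrays 2.46, 2.74, 2.24 and 2.81. It exceeded the array median on 3 control vehicle arrays and 1 control DNFB array and on none of the 8 NICD arrays, so it passed the filter of 4 arrays only through its high control arrays. Its differences are therefore given without a test. DNFB minus vehicle was -0.84 ± 0.24 in control mice, whose groups overlapped, and -0.10 ± 0.30 in NICD mice, where all 8 arrays were low.

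Tiparp encodes an ADP-ribosyltransferase that is induced by AHR and dampens it. It ran from 8.40 to 8.86 (median 8.59) in control vehicle and from 8.49 to 8.87 (median 8.70) in control DNFB arrays. Vehicle arrays of NICD mice read 7.73, 8.18, 8.20 and 8.08, and the NICD DNFB arrays 7.38, 7.94, 7.52 and 8.13. DNFB and vehicle arrays overlapped within each genotype, while all NICD arrays lay below all control arrays in the deposited values. Measured from each array's own median, the vehicle arrays of the genotypes overlapped. The DNFB difference was 0.08 ± 0.13 in control mice (limma adjusted p = 0.643) and -0.31 ± 0.15 in NICD mice (limma adjusted p = 0.128). Without NICD vehicle replicate 1 or NICD DNFB replicate 4 the latter passed, at -0.41 (adjusted p = 0.0481) and -0.44 (adjusted p = 0.031).

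**Figure D2:**
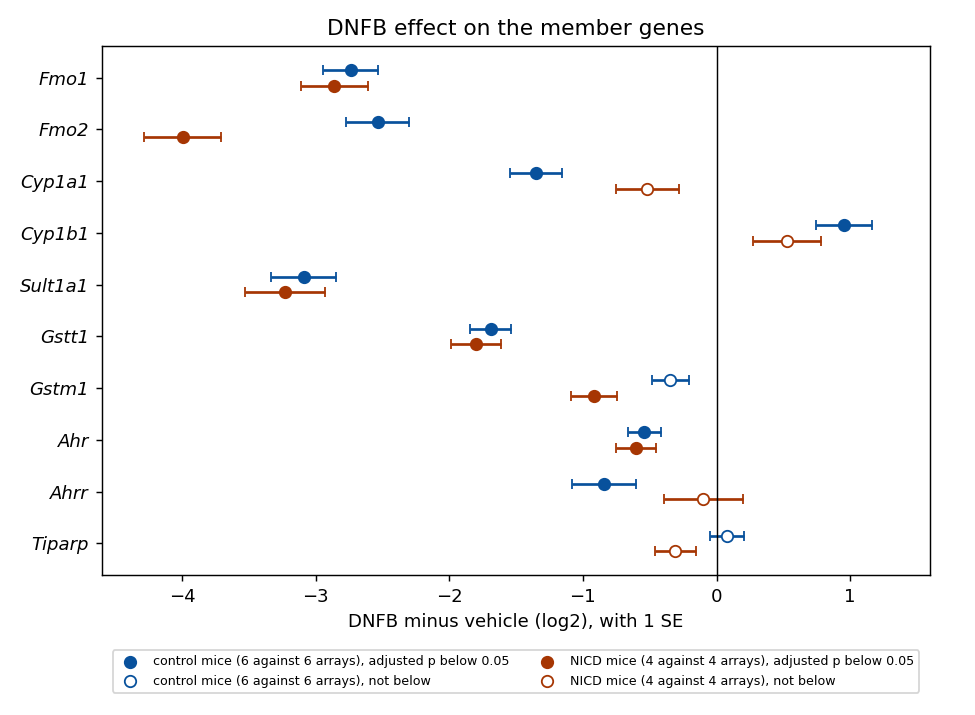
DNFB minus vehicle (log2, horizontal axis, bars 1 SE) for the 10 genes in control mice (blue, 6 against 6 arrays) and NICD mice (brown, 4 against 4), with filled points where the adjusted p is below 0.05. The differences of Fmo2, Sult1a1 and Ahrr are given without a test, so their filling is not to be read as one. Fmo1, Sult1a1, Gstt1 and Ahr have overlapping bars in the genotypes, Fmo2 reads -2.53 against -3.99, and Cyp1b1 is the only gene to the right of 0 in both.

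The DNFB effect was compared between the genotypes directly. None of the 10 genes passed in limma's test of that difference, in which 0.0134% of all probe sets passed. Beside 1580 of all 14886 probe sets, 3 of the 10 genes had an unadjusted p under 0.05. Those were Cyp1a1 (0.83 ± 0.31, limma adjusted p = 0.334), Gstm1 (-0.57 ± 0.22, limma adjusted p = 0.355) and Fmo2. For Fmo2 the value of -1.46 ± 0.37, which ran from -1.62 to -1.32 without 1 array, is the difference of the DNFB differences it was chosen for, and is given as description. Differences for Fmo1 (-0.12 ± 0.33), Sult1a1 (-0.14 ± 0.39), Gstt1 (-0.11 ± 0.24) and Ahr (-0.06 ± 0.19) were smaller than their errors.

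NICD arrays were lower than control arrays for Tiparp, Gstt1 and Gstm1 in both kinds of ear, for Fmo2 and Cyp1b1 in DNFB ears and for Cyp1a1 in vehicle ears. Ahrr is counted here although its place in the fit rests on its high control arrays. Fmo2 is counted too, although it was chosen for differences that use the same DNFB arrays. In DNFB ears 6 of the 10 genes passed lower and 0 higher, beside 35.1% and 5.45% of all probe sets. In vehicle ears 5 passed lower and 0 higher, beside 33.0% and 2.88%. Much of this background is a shift of the whole array set: the median difference over all probe sets was -0.27 (DNFB ears) and -0.28 (vehicle ears), but 0.025 and 0.024 once arrays were centred on their medians. With centred arrays 4 of the 10 passed lower in DNFB ears (10.8% of probe sets lower, 16.5% higher) and 2 in vehicle ears (7.40% lower, 11.3% higher), again with 0 higher, and with Ahrr counted in vehicle ears only.

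Fmo2 had the largest of these differences in DNFB ears. NICD minus control in DNFB ears was -1.84 ± 0.26, and -1.54 with centred arrays. Both values use the DNFB arrays of the differences Fmo2 was chosen for, so they are given without a test. So is the Fmo2 difference of -0.38 ± 0.26 in vehicle ears, since the vehicle arrays entered those differences too. Fmo1 next to it differed by -0.21 ± 0.23 in DNFB ears (limma adjusted p = 0.494), and the sign turned with centred arrays (0.09).

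The glutathione transferases were lower in NICD arrays. Gstt1 differed by -1.0 ± 0.17 in DNFB and -0.89 ± 0.17 in vehicle ears (limma adjusted p = 0.000202 and 0.000675), and by -0.70 and -0.58 with centred arrays, where both passed. Gstm1 differed by -1.22 ± 0.16 and -0.65 ± 0.16 (limma adjusted p = 1.9e-05 and 0.00405), and by -0.92 (adjusted p = 0.000316) and -0.34 (adjusted p = 0.138) with centred arrays. Sult1a1 differed by -0.45 ± 0.27 in DNFB ears, and by -0.63 without control DNFB replicate 6. In vehicle ears the Sult1a1 difference was -0.31 ± 0.27. As for Fmo2, these are given without a test.

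Among the AHR genes the receptor did not differ past the threshold between genotypes (0.02 ± 0.14 with DNFB and 0.08 ± 0.14 with vehicle, limma adjusted p = 0.928 and 0.667), and with centred arrays read 0.32 and 0.39. For Ahrr the difference, without a test, was -1.56 ± 0.27 in vehicle ears and -0.82 ± 0.27 in DNFB ears, and -1.25 and -0.52 with centred arrays. In the deposited values the NICD and control arrays of Ahrr did not overlap in either kind of ear. Measured from each array's own median, they overlapped in DNFB ears.

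Tiparp differed by -0.95 ± 0.14 in DNFB and -0.56 ± 0.14 in vehicle ears (limma adjusted p = 6.24e-05 and 0.00461). With centred arrays it was -0.65 (adjusted p = 0.00284) and -0.26 (adjusted p = 0.234). Its second probe set gave -0.73 ± 0.19 and -0.99 ± 0.19, both past the threshold.

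Of the CYP1 genes, Cyp1b1 was lower in NICD than in control DNFB ears by -0.83 ± 0.23 (limma adjusted p = 0.00864), which did not pass with centred arrays (-0.53, adjusted p = 0.0848). In vehicle ears it differed by -0.41 ± 0.23 (limma adjusted p = 0.178), and passed at -0.69 without NICD vehicle replicate 2 (adjusted p = 0.0213). Cyp1a1 was lower in NICD vehicle ears by -0.72 ± 0.22 (limma adjusted p = 0.0143), which did not pass with centred arrays (-0.41, adjusted p = 0.189) or without NICD vehicle replicate 4 (-0.51, adjusted p = 0.0743). Of the 9 fibroblast markers 4 passed lower in NICD DNFB ears and 1, Pdgfra, in NICD vehicle ears, beside 35.1% and 33.0% of all probe sets. With centred arrays 1 and 0 passed lower, beside 10.8% and 7.40%. The mean level of the fibroblast markers ran from 5.95 to 6.91 in NICD DNFB and from 6.16 to 6.62 in NICD vehicle arrays. Their part in the CYP1 differences was not tested.

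**Figure D3:**
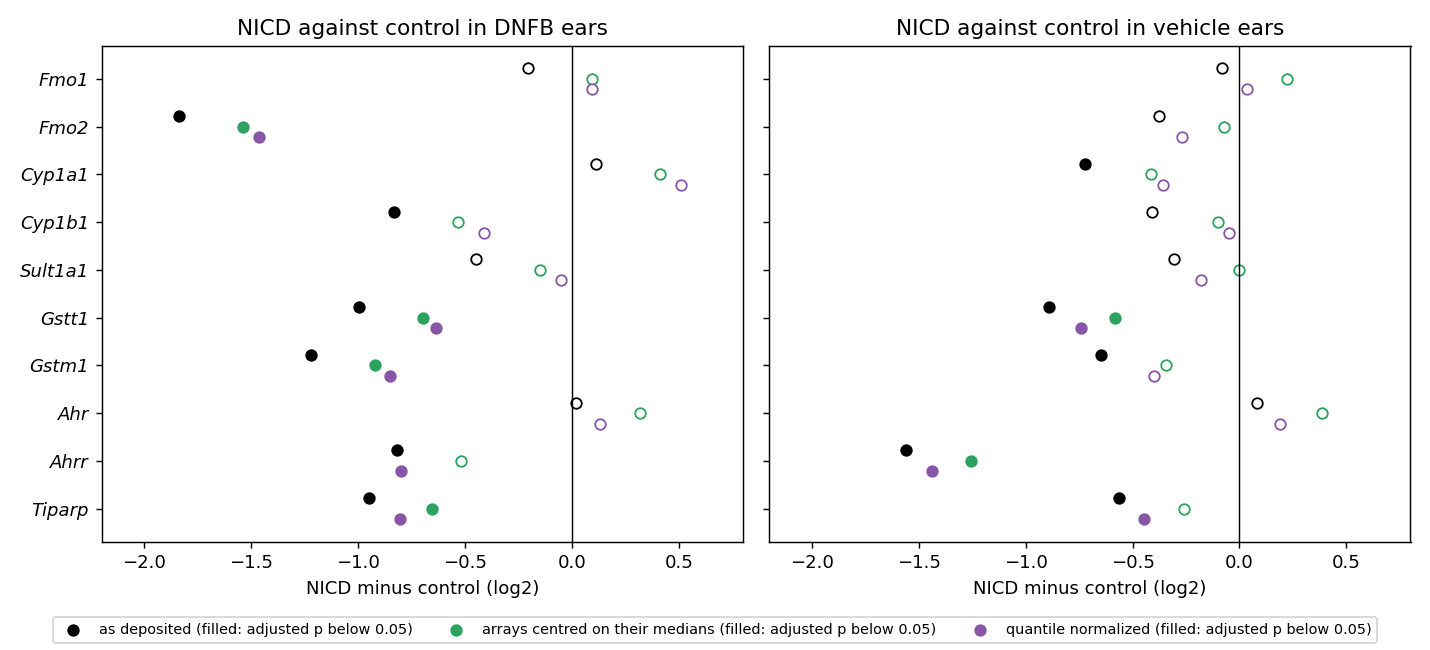
NICD minus control (log2, horizontal axis) for the 10 genes in DNFB ears (left) and vehicle ears (right), from the deposited values (black), with arrays centred on their medians (green) and after quantile normalization (purple), filled where the adjusted p is below 0.05. The differences of Ahrr, Fmo2 and Sult1a1 are given without a test, so their filling is not to be read as one. Gstt1 is filled under all 3 scalings in both kinds of ear, whereas Cyp1b1 and Cyp1a1 are filled with the deposited values only.

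Other genes of the pathway, from lists also drawn up with earlier results known, showed which steps moved with DNFB. Of 34 further oxidation, reduction and hydrolysis genes 27 were measured above the filter: 15 fell and 1 rose in control mice, and 16 fell and 0 rose in NICD mice. Over all probe sets 23.6% passed lower and 23.7% higher in control mice, and 18.1% and 20% in NICD mice, shares that the lists below can be read against. The oxidation genes had a median difference of -0.61 and -0.69, beside -0.0012 and 0.0067 over all probe sets. Cyp2d22, a P450 of the drug-metabolising CYP2D family, fell by 2.19 ± 0.17 and fell by 2.82 ± 0.20, and Ephx1, the microsomal epoxide hydrolase, fell by 1.73 ± 0.13 and fell by 2.21 ± 0.16. The alcohol dehydrogenase Adh1 fell by 1.94 ± 0.21 and fell by 1.90 ± 0.26.

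Of 37 conjugation genes listed, 19 were measured, of which 9 fell and 3 rose in control mice and 6 fell and 3 rose in NICD mice (median -0.18 and -0.22), beside 23.6% lower and 23.7% higher of all probe sets in control and 18.1% and 20% in NICD mice. The alpha-class transferase Gsta4, which detoxifies lipid aldehydes, rose by 3.24 ± 0.27 in control and by 2.34 ± 0.33 in NICD mice, opposite to Gstt1. Gstk1 fell by 1.37 ± 0.14 in control mice and Gsto1 rose by 1.05 ± 0.13 in NICD mice.

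Of 15 AHR partners and other genes it is known to induce, 13 were measured, of which 7 rose and 0 fell in control mice and 4 rose and 0 fell in NICD mice (median 0.35 and 0.27), beside 23.7% higher of all probe sets in control and 20% in NICD mice. The quinone reductase Nqo1, which NRF2 also induces, rose by 1.27 ± 0.15 and by 0.95 ± 0.18, and the amino acid transporter Slc7a5 rose by 1.57 ± 0.30 and by 1.12 ± 0.37. Serpinb2 rose by 1.94 ± 0.27 in control mice. These ran opposite to Cyp1a1 in the same control arrays.

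Of 17 measured drug transporters 7 fell and 4 rose in control and 5 fell and 5 rose in NICD mice, and the share that rose in control mice was close to the 23.7% over all probe sets. The efflux pump Abcb1a fell by 2.36 ± 0.15 and fell by 2.60 ± 0.18, the uptake carrier Slco2b1 fell by 2.20 ± 0.16 and fell by 2.03 ± 0.19, and the prostaglandin carrier Slco2a1 rose by 1.50 ± 0.15 in NICD mice. Of 8 measured nuclear receptors 5 fell and 1 rose in control and 4 fell and 0 rose in NICD mice, with the oxysterol receptor Nr1h3 at -1.49 ± 0.17 and -1.21 ± 0.20 and Pparg at -1.06 ± 0.17 and -0.70 ± 0.20.

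**Figure D4:**
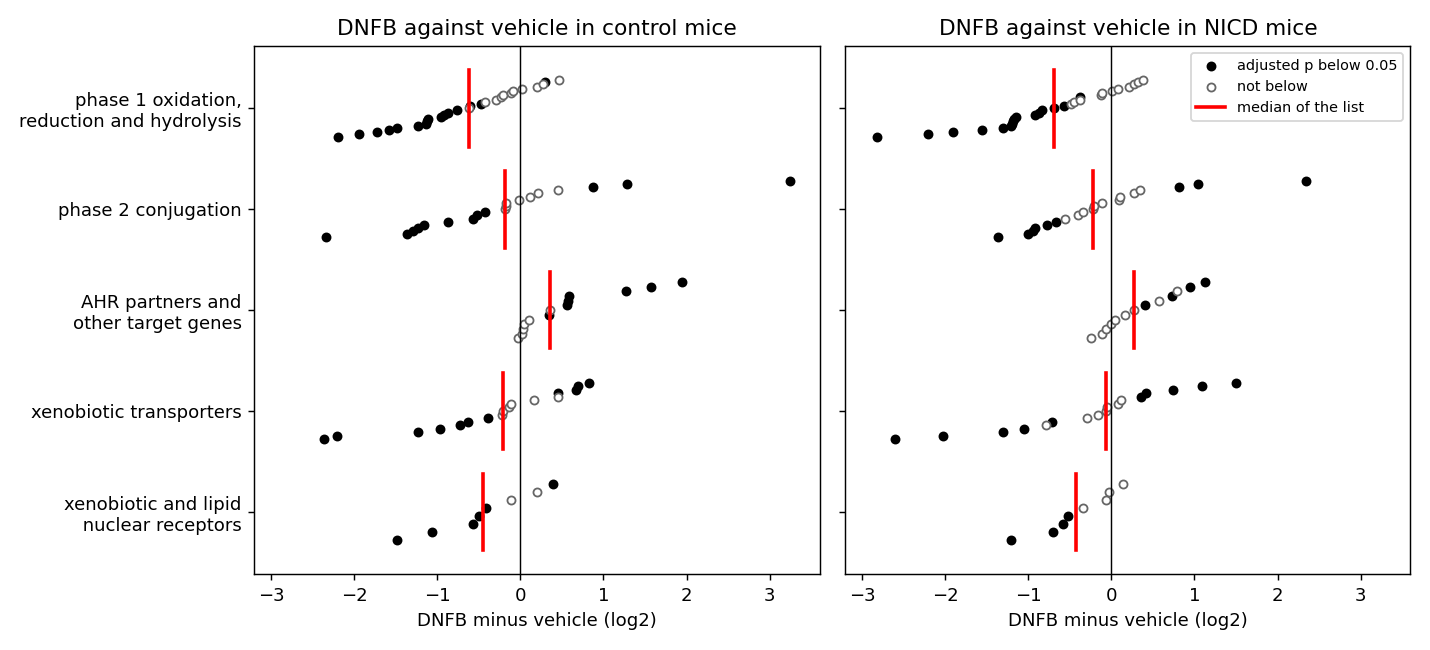
DNFB minus vehicle (log2, horizontal axis) for each measured gene of 5 pathway lists in control mice (left) and NICD mice (right), filled where the adjusted p is below 0.05, with the list median in red. Oxidation genes lie mostly left of 0 (median -0.61 and -0.69), and AHR partners and other targets lie mostly right of it (0.35 and 0.27).

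Genes with profiles most like those of the 10 were found by the root mean square difference of profiles, each scaled to its own mean and SD, over the 20 arrays. For Sult1a1 these were Snrk (0.166 SD), the capillary receptor Cd300lg (0.182) and Rasa4 (0.185). For Fmo1 they were Mxra8 (0.196), the guanylate cyclase subunit Gucy1a1 (0.205) and Chp2 (0.209), and for Fmo2 Tgfbr3 (0.212), Ebf1 (0.213) and Sparcl1 (0.22). Gstt1 was most like the glutamine synthetase gene Glul (0.221). The nearest genes of Cyp1a1 (Herpud1, 0.414), Cyp1b1 (Pelo, 0.442), Ahrr (Pik3c2a, 0.423) and Tiparp (Rab26os, 0.368) were less close.

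Capillary endothelial markers fell in 7 of 8 and rose in 1 of 8 in each genotype, with a median of -1.95 in control and -1.72 in NICD mice, and 10 of 11 endothelial markers fell in control and 6 of 11 in NICD mice (median -0.71 and -0.32). Pericyte and smooth muscle markers fell in 8 of 9 and 7 of 9, beside 23.6% of all probe sets lower in control and 18.1% in NICD mice. The part of these changes in the falls of Fmo1, Fmo2, Sult1a1 and Gstt1 was not tested.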

How the data were processed

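Affymetrix mouse gene arrays were hybridised with RNA of sorted ear endothelial cells, amplified from 1 ng of total RNA per the labels' protocols. The deposited unit is log2 after RMA, which the authors ran in Affymetrix Expression Console per the submitters' processing notes. Versions, options and whether all arrays were normalized together are not given in the sources used here. The number of arrays limits the precision, and replicates of a group correlated with r of 0.944 to 0.981.

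Of 41345 probe sets, 23521 carried 1 gene symbol, 1814 several and 16010 none in the platform annotation. A probe set with 1 symbol was kept (14886) if 4 or more arrays had it over their own median, which held for all 10 genes. Group means over the 20 arrays were compared with limma 3.58.1 (R 4.3.3), whose use was tested on simulated data. Fold changes were computed as powers of 2 of log2 differences. Figures used matplotlib 3.10.9.

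The genes, pathway lists and markers were chosen with earlier results of these data known. Named were the 10 genes, and from each list up to 4 genes past the threshold of largest difference. Fmo5, Gstt3, Gstm2, Gstm4 and Arnt were named after their values were seen, as relatives, neighbours or partner of the 10, and Pdgfra, Lum and Ptprc as markers. Alternatives were other filters, scalings, variance models, array weights, only the groups compared, a replicate block, each array left out, a 2-fold limit, an exact permutation test and the second Tiparp probe set. RefSeq tables supplied promoter sequences and gene order.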

Additional observations from a re-analysis of the deposited data

Results flagged for a closer look

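Of 40 combinations of a gene and a group, 2 held an array set apart from the rest of its group, and chance sets apart about 1 in 20 groups. Sult1a1 was 8.80 in control vehicle replicate 2, above the next highest array of that group (8.29). Ahr was 8.58 in control vehicle replicate 1, below the next lowest (8.79).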

How the results depend on the processing

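No difference that passed the threshold changed its sign in any alternative fit or fit without 1 array. The 8 genes past the threshold for DNFB in control mice became 5 with a 2-fold limit. For NICD against control in DNFB ears the 6 became 2 with a 2-fold limit, and in vehicle ears the 5 became 3 with quantile normalization, 2 with median centring and 1 with a 2-fold limit. Leaving out 1 array gave 7 to 9 and 6 to 7 genes for DNFB in control and NICD mice, 5 to 7 and 4 to 6 for the genotypes in DNFB and vehicle ears, and 0 for the difference of the DNFB effects. Ahrr was not tested without control vehicle replicate 2, 3 or 6 or control DNFB replicate 3, since it then exceeded the array median on too few arrays. Of 10 same-numbered pairs of vehicle and DNFB arrays, 5 deviated together with a correlation over 0.1 (range 0.0418 to 0.269). In 6 of the 10 the vehicle array correlated best with the DNFB array of its own number. The titles give replicate numbers without stating a pairing. Whether the numbers pair the samples is therefore not settled, and the main fit leaves pairing out. With the replicate block the counts were 8, 6, 6, 5 and 0, as without it. Values near the array median, as for Cyp1a1 and Ahrr, limit what those differences can show.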
